A study of Homo sapiens with 3 samples.

Results

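The MYC family and the PVT1 locus were taken as 8 genes chosen by name from 59098 annotated genes: MYC, MYCN and MYCL, their partner MAX, the repressors MXD1, MXD4 and MNT, and the noncoding gene PVT1. Peaks were collected within each gene and 50 kb around it and, for MYC and PVT1, within 2 Mb either side of MYC, which gave 153 of 72894 H3K27ac peaks and 58 of 32043 H3K4me3 peaks. The peaks come from chromatin immunoprecipitation and sequencing of HCC1599. It is a long-established cell line from a triple-negative breast cancer, a class defined by the lack of hormone receptors and HER2, and the series describes it as positive for a transcript named MARCO-TST. The series held 3 samples of HCC1599, for which the labels give no treatment, with 1 library per mark (H3K27ac and H3K4me3) and an input without antibody. No value therefore has a replicate check and no test between conditions exists; the number of reads is unknown, so the lack of a called peak does not show that a mark was missing.

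MYC, MYCN and MYCL are basic helix-loop-helix leucine zipper transcription factors that bind E-boxes in DNA as dimers with MAX and drive growth genes. MXD1, MXD4 and MNT also pair with MAX and repress at the same kind of site. PVT1 is a long noncoding RNA gene next to MYC that is often gained together with it in breast cancer, and its start region is known to compete with MYC for enhancers in breast cancer cells. H3K27ac marks active promoters and enhancers and H3K4me3 marks promoters. HCC1599 is known for growth that depends on Notch signalling, of which MYC is a target in several cancers.

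All 8 genes carried both marks within 1 kb of a start (of either gene end for MYC and PVT1), against 57.7% of 19974 protein-coding genes; 12.3% of those had H3K4me3 only, 2.27% H3K27ac only and 27.8% neither. For PVT1 the nearer background is the lncRNA genes, of which 19.8% had both marks. Each start had an H3K4me3 peak at a score of 3100, the value at which scores pile up in this list (33.9% of all H3K4me3 peaks were at 3100 or above), so the score does not tell them apart. By width these peaks ran from 2935 bp at MXD1, a width that 62.0% of marked protein-coding genes reach, to 11299 bp at PVT1, which 0.687% reach. H3K27ac scores differed between the genes, except that MYC and MNT were both at 3100. The highest H3K27ac score at a start was 3100 for MYC and for MNT, 2765 for PVT1, 1781 for MXD1, 1318 for MXD4, 566.8 for MYCL, 180.1 for MAX and 31.98 for MYCN. Of protein-coding genes with H3K27ac at the start, 13.4% reach the score of MYC, 15.2% that of PVT1 and 99.3% that of MYCN. The median over the 11525 protein-coding genes with both marks was 663.6, so that MYCL, MAX and MYCN lay below it. The score is the one the authors deposited, without a stated unit, and it orders peaks within a list only.

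Within 50 kb the genes differed most in how much sequence H3K27ac covered. H3K27ac peaks covered 43.8% of the MYC window, 31.8% of the PVT1 window and 29.8% of the MNT window. They covered 17.5% for MYCL, 16.7% for MYCN, 14.0% for MAX, 11.4% for MXD4 and 5.62% for MXD1. All 8 values were above the median of 5.18% for protein-coding genes, as 50% of those genes are by construction, and that of MXD1 was just above it. H3K4me3 covered 18.1% for MYC, 16.6% for MNT, 11.7% for MYCL, 10.1% for MXD4, 8.60% for MAX, 7.05% for MXD1, 6.96% for PVT1 and 5.14% for MYCN, against a median of 5.10%. MYCN was thus level with the median for H3K4me3. Counting peaks gave another order: the MYC window held 4 H3K27ac peaks and the PVT1 window 27, against a median of 6. The MYC window is 107518 bp long and the PVT1 window 406733 bp. The windows of MYC and PVT1 overlap and share peaks.

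**Figure D1:**
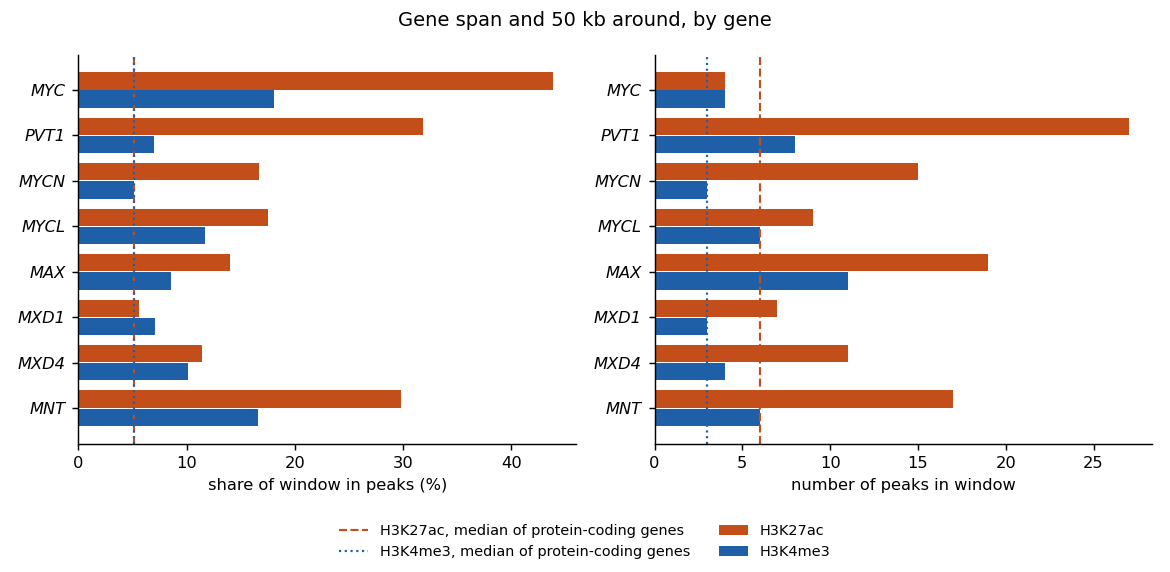
Share of the gene span and 50 kb around it that lies in peaks (left, percent) and number of peaks there (right) for each of the 8 genes, H3K27ac above H3K4me3; dashed and dotted lines are the medians over 19974 protein-coding genes. MYC has the highest H3K27ac share, 43.8%, with 4 peaks, and MXD1 the lowest, 5.62%.

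MYC, at positions 127735434 to 127742951 of chromosome 8 (hg38), lay wholly inside both marks. Its H3K27ac peak, at 127721470 to 127744274, was 22805 bp wide and ranked 21st by width of 72894. The H3K4me3 peak, at 127732495 to 127743539, was 11045 bp wide and fell entirely within it. Both peaks also covered the nearer end of CASC11, a noncoding gene 1.5 kb from MYC, so their widths do not belong to MYC alone. A second H3K27ac domain, 21482 bp at 127693544 to 127715025 and ranked 25th, covered the end of CASC11 that lies farther from MYC. It held 2 weaker H3K4me3 peaks of 2807 and 5196 bp with scores of 43.17 and 137.4. H3K4me3 covered 37.3% of this second domain, against 48.4% of the peak over MYC, but at far lower scores.

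The other MYC genes were marked on a smaller scale. MYCN, a driver of neuroblastoma, lies at 15940550 to 15947004 of chromosome 2. Its start sat in an H3K4me3 peak of 4034 bp at 15939344 to 15943377, with a score of 3100. On that peak lay 2 H3K27ac peaks of 587 and 519 bp with scores of 31.98 and 36.93, near the lowest score of 30 in the list. Of the 10781 protein-coding genes with an H3K4me3 score of 3100 or above at the start, 8.64% had an H3K27ac score under 50 there or none, as MYCN had. H3K27ac nearby was stronger than at the gene: the peak at 15975482 to 15977793, 28477 bp above the gene, was 2312 bp wide and scored 544.6, and a pair at 15988246 to 15989787 and 15989842 to 15991146 scored 355.6 and 496.1. Below the gene the strongest was 2434 bp at 15912303 to 15914736 with a score of 369. None of these 4 carried H3K4me3.

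MYCL, at 39895428 to 39901917 of chromosome 1 and read toward lower coordinates, had 4407 bp of H3K4me3 over its start, at 39898997 to 39903403. An H3K27ac peak of 1886 bp with a score of 566.8 lay inside it. A wider H3K27ac peak of 6596 bp, at 39890853 to 39897448 with a score of 704.1, covered the far end of the gene and ran beyond it. It carried 1 H3K4me3 peak of 1411 bp with a score of 35.14. The wider H3K27ac peak thus lay at the far end, most of it beyond the gene, while H3K4me3 was centred on the start.

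MAX, the shared partner, spans 96595 bp at 65006101 to 65102695 of chromosome 14. Its H3K4me3 peak, 4442 bp at 65099754 to 65104195, overlapped 3 H3K27ac peaks of 1701, 525 and 433 bp with scores of 180.1, 41.17 and 54.23. Acetylation inside the gene was stronger than at its start, with 650.7 at 65070387 to 65072676 and 303.6 at 65093824 to 65095487. The gene held 9 H3K27ac peaks over 13.9% of its span and 5 H3K4me3 peaks over 7.03%. The 3118 bp peak at 64996600 to 64999717, scoring 1210, and the 2517 bp peak at 64964515 to 64967031, scoring 1076, were the strongest in the flanks. The first lies in the neighbouring gene FNTB and the second in RAB15.

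Among the repressors MNT stood closest to MYC in its marks. MNT, at 2384073 to 2401060 of chromosome 17, had an H3K27ac peak of 7777 bp at 2395153 to 2402929 and an H3K4me3 peak of 8050 bp at 2395586 to 2403635, both with scores of 3100. Of the H3K27ac peak, 94.4% was covered by H3K4me3, against 48.4% at MYC. A second pair inside MNT, of 2259 bp of H3K27ac scoring 1911 and 2919 bp of H3K4me3 scoring 3100, lay at 2391564 to 2394482. Peaks at 2343482 to 2350226 (6745 bp, score 3100) and 2334278 to 2338992 (4715 bp, score 2607) added to the H3K27ac in its flank; both overlap the neighbouring gene SGSM2. The acetylation counted for MNT is thus not all at MNT.

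MXD1 and MXD4 had marks of ordinary width. MXD1, at 69915109 to 69942945 of chromosome 2, had an H3K27ac peak of 2402 bp that ended 379 bp before its start, scoring 1781, and one of 1203 bp over the start, scoring 316.9. H3K4me3 peaks of 1982 and 2935 bp lay in the same places, both with scores of 3100. Inside the gene only 2 further H3K27ac peaks were called, with scores of 58.4 and 31.26. MXD4, at 2247432 to 2262109 of chromosome 4, had 3 H3K27ac peaks in a row from 2254972 to 2262108, of 3573, 1708 and 1745 bp with scores of 825.7, 285.2 and 1318. They covered 47.9% of the gene. Its start carried H3K4me3 peaks of 3225 and 965 bp with scores of 3100 and 2116.

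**Figure D2:**
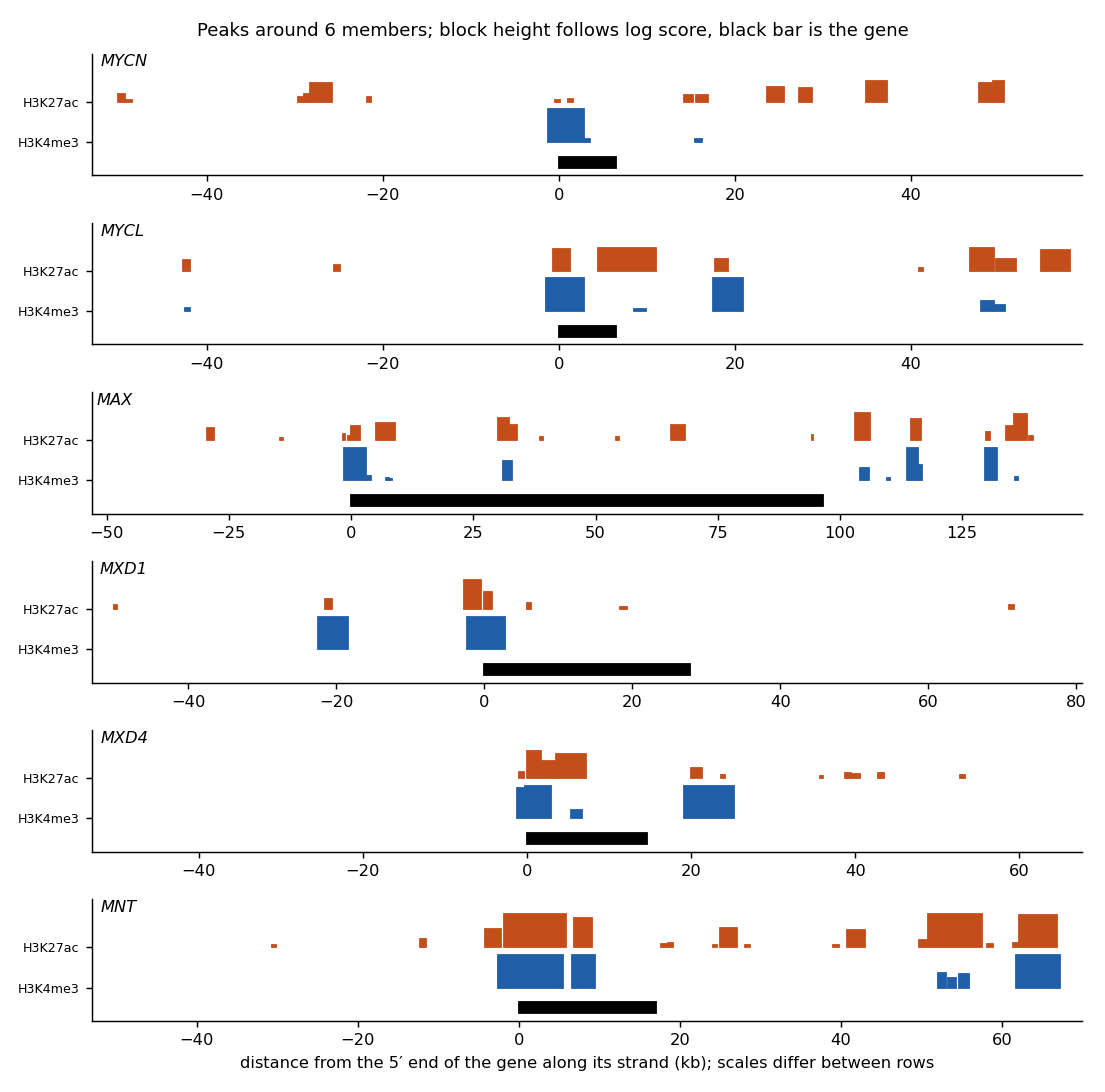
Peaks around MYCN, MYCL, MAX, MXD1, MXD4 and MNT, by distance from the 5′ end of the gene along its strand (kb), H3K27ac blocks above H3K4me3 blocks; block height follows the logarithm of the score and the black bar is the gene. MYCN has a full-height H3K4me3 block over its start and only the lowest H3K27ac blocks there, while MNT has full-height blocks of both marks.

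The 250 bases before the starts of 3 members are printed to show the sequence under these marks, from RefSeq (GRCh38.p14), 5′ to 3′ on the gene's strand. Capitals in MNT and MXD4 mark the E-box CACGTG, the site that MAX and its partners bind, and in MYCN 2 overlapping matches of TTTNGCGC, the core of E2F sites, on opposite strands. MYCN lies on the plus strand at chr2:15940300-15940549, MNT on the minus strand at chr17:2401061-2401310 and MXD4 on the minus strand at chr4:2262110-2262359.
MYCN: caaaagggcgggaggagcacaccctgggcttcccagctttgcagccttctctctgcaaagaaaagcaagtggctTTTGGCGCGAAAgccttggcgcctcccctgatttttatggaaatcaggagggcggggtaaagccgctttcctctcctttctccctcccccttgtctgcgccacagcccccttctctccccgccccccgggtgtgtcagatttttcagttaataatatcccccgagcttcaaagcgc
MNT: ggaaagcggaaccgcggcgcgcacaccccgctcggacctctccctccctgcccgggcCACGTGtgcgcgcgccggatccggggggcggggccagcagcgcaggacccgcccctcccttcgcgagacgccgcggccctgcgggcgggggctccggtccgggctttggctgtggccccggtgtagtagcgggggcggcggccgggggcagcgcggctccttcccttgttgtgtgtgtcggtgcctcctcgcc
MXD4: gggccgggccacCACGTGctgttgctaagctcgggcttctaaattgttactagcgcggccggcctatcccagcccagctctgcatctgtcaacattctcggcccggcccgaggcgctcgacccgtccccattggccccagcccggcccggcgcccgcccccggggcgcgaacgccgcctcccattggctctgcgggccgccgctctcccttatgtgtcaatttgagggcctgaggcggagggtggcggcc

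E-box letters on either strand were in the 250 bases of 2 of the 6 members that the promoter table holds, MNT at 193 and MXD4 at 238 bases before the start, and in 6.50% of 27195 promoters. They were not in those of MYCN, MYCL, MXD1 or either start of MAX. E2F letters were in MYCN alone of the 6, at 176 and 172 bases before the start, and in 1.54% of promoters. The printed bases of MYCN and MNT lay fully inside peaks of both marks. Those of MXD4 lay fully inside H3K4me3 and in a gap between H3K27ac peaks, one of which ended at 2262108 and the next began at 2262485. Of 9829 protein-coding promoters fully inside H3K4me3, 60.4% were fully inside H3K27ac and 19.7% had none. MXD1 was split in both marks, with 38.4% of its 250 bases in H3K27ac and 54.8% in H3K4me3. TATAAA, the letters of a TATA box, was in none of the 6 and in 11.1% of promoters.

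PVT1, at 127794524 to 128101256 of chromosome 8, begins 51572 bp above MYC and was acetylated over much of its length. It held 26 H3K27ac peaks over 40.8% of its 306733 bp and 8 H3K4me3 peaks over 8.60%. Among the 1771 protein-coding genes that are 0.5 to 2 times as long, 3 (0.169%) had as large a share in H3K27ac, and the median was 1.92% with 5 peaks. This comparison was chosen after the values were seen. Inside PVT1 the marks thinned from its start, the end nearest MYC, to its far end. Distance from MYC and distance from the PVT1 start cannot be told apart here. In the 102245 bp nearest MYC, H3K27ac covered 60.2% and H3K4me3 19.3%; in the next 102244 bp they covered 41.8% and 6.44%; in the last 102244 bp H3K27ac covered 20.4% and no H3K4me3 peak was called.

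The start of PVT1 had an H3K4me3 domain like that of MYC in width. Its H3K4me3 peak, 11299 bp at 127792572 to 127803870, was slightly wider than that of MYC, and they ranked 84th and 96th of 32043 by width. It covered 83.8% of the H3K27ac peak there, 13478 bp at 127792441 to 127805918, against 48.4% at MYC. The microRNA gene MIR1204 lies inside both peaks. Between MYC and PVT1 the marks fell away: 11.1% of the 51572 bp was in H3K27ac and 4.93% in H3K4me3, and this included the edges of the peaks of MYC and PVT1 themselves. A single H3K27ac peak lay clear of both, 2310 bp at 127787555 to 127789864 with a score of 251.8.

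Farther inside PVT1 H3K27ac peaks were dense. Between 127830349 and 127892478, 8 peaks covered 43807 bp of 62130 bp, the strongest of them 8736 bp at 127849986 to 127858721 with a score of 2583. This was the largest cluster of distal H3K27ac peaks within 2 Mb of MYC and ranked 18th of 28081 in the genome, where distal means over 2.5 kb from the end of any gene and peaks were joined at the distance customary for calling super-enhancers. It was the only one of the 32 clusters near MYC in the first 100, a rank that 0.356% of all clusters reach. Joined at 5 kb instead, it held 24526 bp. It carried 3 H3K4me3 peaks of 5337, 2479 and 2621 bp with scores of 267.6, 210.8 and 357.3. The strongest single peak in PVT1, 11083 bp at 127946553 to 127957635 with a score of 3100, covers LINC02912 and 3 H3K4me3 peaks with scores of 46.33, 97.09 and 115.6.

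The next 4 clusters by length were smaller. One of 18971 bp at 127573719 to 127599047 centred at -149.1 kb from the MYC start, lay in no annotated gene, had a top score of 2865 and no H3K4me3. The cluster at 128162887 to 128179288, 435.7 kb above MYC in LOC124902020, held 15133 bp in 2 peaks that both scored 3100 and 1 H3K4me3 peak. Those at 127034605 to 127055738, in no gene, and 127965946 to 127995079, in PVT1, held 13557 and 12803 bp with top scores of 843.6 and 354.5. Of these 5, 3 lay on the PVT1 side of MYC and 2 on the other. The distal rule also drops peaks near the ends of noncoding genes, so this tally does not compare the sides. On the other side it left out the 21482 bp domain at CASC11 and domains of 7333 to 16329 bp along CASC8 and CASC21. On the PVT1 side it left out the 13478 bp peak at the start and the 11083 bp peak over LINC02912.

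Which side of MYC held more H3K27ac depended on the distance. Within 2 Mb, 169353 bp lay on the PVT1 side in 42 peaks and 195137 bp on the other side in 34 peaks, with the peak over MYC reaching across to both. Within 500 kb, a distance added after seeing the data, the PVT1 side held 153590 bp and the other side 149503 bp. Scores of 3100 or above were reached by 5 peaks on the PVT1 side and 10 on the other. On the other side many of the strongest peaks ran along CASC8 and CASC21, overlapping noncoding genes 253.3 and 342.8 kb from MYC. Within it lay domains of 11246 bp at 127279363 to 127290608, 9990 bp at 127290761 to 127300750, 16329 bp at 127389996 to 127406324, 9249 bp at 127414645 to 127423893 and 7333 bp at 127475185 to 127482517, each with a score of 3100. The 16329 bp domain covers CCAT2, a noncoding gene in a region known for inherited cancer risk, and the 9249 bp domain overlaps POU5F1B, a retrotransposed copy of the stem cell factor gene POU5F1. CCAT1, a noncoding gene known from colon cancer, had 1 H3K27ac peak, with a score of 69.67, and no H3K4me3.

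**Figure D3:**
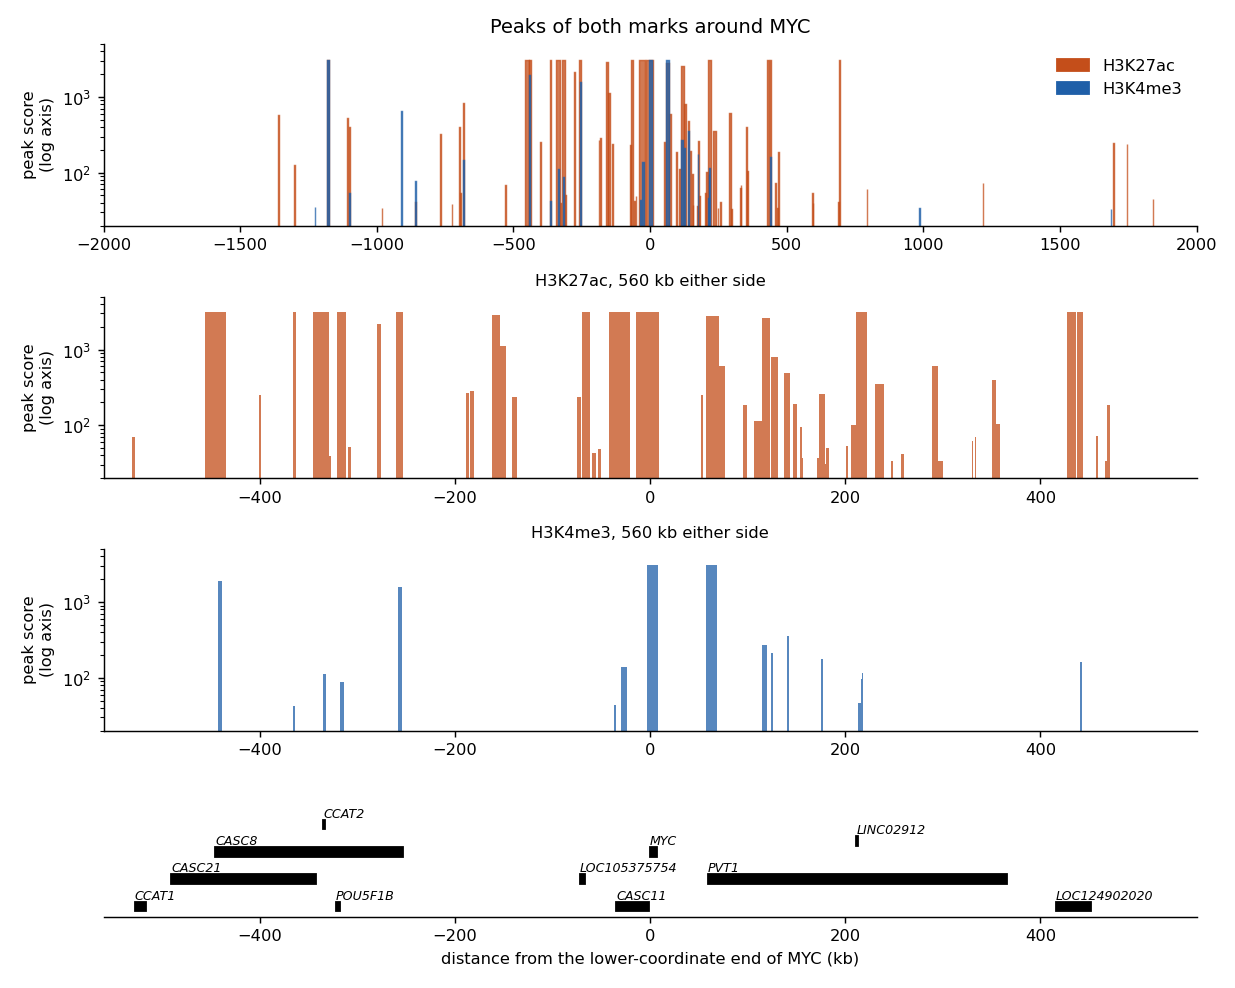
Peak scores (log axis) by distance from the lower-coordinate end of MYC (kb): both marks over 2 Mb either side (top), then H3K27ac and H3K4me3 over 560 kb either side, with genes below; the width of each block is that of the peak. H3K27ac blocks at 3100 lie on both sides of MYC, and H3K4me3 reaches 3100 within 560 kb only at the starts of MYC and PVT1.

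Within 2 Mb of MYC, as in the whole list, most H3K27ac peaks lacked H3K4me3 and most H3K4me3 peaks lay on H3K27ac. Of 75 H3K27ac peaks, 18 (24.0%, exact Clopper-Pearson 95% interval 14.9 to 35.3, which covers counting error only) overlapped H3K4me3, against 34.8% of the whole list. Of 25 H3K4me3 peaks, 21 (84.0%, 63.9 to 95.5) overlapped H3K27ac, against 71.0%. By length, 20.9% of the H3K27ac lay in H3K4me3, against 40.7% in the whole list, and 94.0% of the H3K4me3 lay in H3K27ac, against 60.6%. Around MYCN these were 23.8% and 47.6%, and around MYCL 37.7% and 55.5%. Among the 14 H3K27ac peaks at 3100 or above (3.71% of the whole list), 10 overlapped H3K4me3 (71.4%, 41.9 to 91.6), against 94.7% of all such peaks. The 4 without it were at 127279363 to 127290608, at 127665914 to 127673628 over LOC105375754, at 128162887 to 128171663 and at 128426115 to 128430928 in LINC00824. A score of 3100 in H3K4me3 was reached by 3 peaks, at LRATD2, MYC and PVT1 (33.9% of the whole list reached it). The intervals above count neighbouring peaks as independent, which they may not be. They do not test a difference from the whole list.

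The marks gathered near MYC. Within 500 kb of the gene, a distance added after seeing the data, lay 53 of the 75 H3K27ac peaks. There lay 83.5% of the acetylated sequence, which covered 30.8% of that stretch, and 80.6% of the H3K4me3. From 500 kb to 2 Mb, H3K27ac covered 1.05% on the PVT1 side and 3.04% on the other. The 250 kb above the MYC start held most, with 114771 bp of H3K27ac and 36422 bp of H3K4me3, and the 250 kb below it held 80173 and 10942 bp. In 1 Mb bins counted from the chromosome end, the bin with MYC, 127000001 to 128000000, held 285506 bp of H3K27ac (28.6%), the most of 3036 bins of all chromosomes (0.0329%), and the next held 27.3%. That bin has 2 protein-coding genes, and the next has 19. With bins shifted by 500 kb, a check added after seeing the data, 5 of 3024 bins, the bin with MYC itself included, held as much as it or more.

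Around MYCN and MYCL the largest 250 kb bins held 17648 and 41377 bp of H3K27ac, against 114771 bp around MYC. In 2 Mb either side, H3K27ac covered 9.28% around MYC, 2.26% around MYCN and 6.79% around MYCL, and H3K4me3 covered 2.07%, 1.13% and 4.61% in the same order, against medians of 4.96% and 3.39% for protein-coding genes. A share of H3K27ac as large as that around MYC was found for 16.9% of protein-coding genes, and a share of H3K4me3 as large for 75%. The windows hold 4 protein-coding genes around MYC, 11 around MYCN and 45 around MYCL, with a median of 42. MYC and MYCN had similar numbers of H3K27ac peaks, 75 and 81, but their median widths were 3707 and 690 bp, and 36 and 1 of them were over 4 kb wide (5.81% of the whole list is). The largest distal clusters were 43807 bp near MYC, 11060 bp near MYCN and 21609 bp near MYCL.

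**Figure D4:**
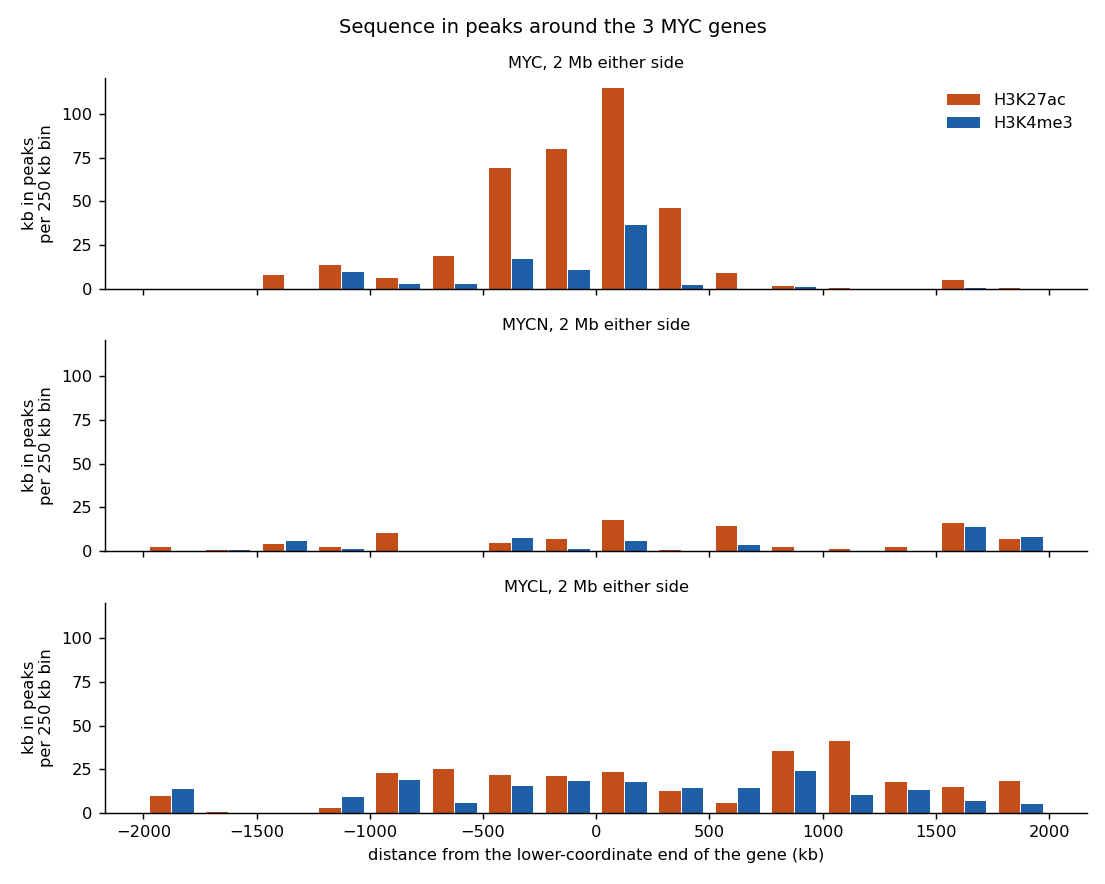
Sequence in peaks (kb) per 250 kb bin within 2 Mb either side of MYC, MYCN and MYCL, by distance from the lower-coordinate end of each gene (kb), H3K27ac left of H3K4me3. H3K27ac around MYC reaches 114771 bp in the bin that begins at the gene and falls off within 500 kb on both sides, while the highest bins around MYCN and MYCL hold 17648 and 41377 bp.

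Wide H3K27ac peaks were not limited to the MYC locus on chromosome 8. A median width of 3707 bp or more within 2 Mb was found for 100 of 19932 protein-coding genes (0.502%). All 100 lie on chromosome 8, between positions 125091860 and 145056030, and only 5 of them lie within 4 Mb of MYC. The median H3K27ac width was 3707 bp within 2 Mb of MYC, 2756.5 bp in the rest of the 30 Mb stretch that holds MYC, 1797 bp in the 80 Mb below that stretch and 750.5 bp in the first 35 Mb of the chromosome. The order was the same for weak peaks: those scoring under 50 had medians of 1693, 1292, 731 and 556 bp, against 563 bp in the whole list. Peaks at 3100 or above had medians of 9013, 7231, 6444 and 4277 bp, the last from 3 peaks. In the same order, 48.0%, 29.1%, 14.9% and 2.23% of H3K27ac peaks were over 4 kb wide. Scores of at least 100 were reached by 62.7%, 62.8%, 46.4% and 38.8%. The stretches lie end to end: the first 35 Mb, then the 80 Mb, then the 30 Mb. Their limits were chosen with earlier results of these data known. The 5 Mb bin just below the 30 Mb stretch had a median of 545 bp and was counted in the 80 Mb. A bin inside the 30 Mb stretch had 768 bp. How far the order of the medians depends on these limits was not tested. Read depth and copy number cannot be read from peak lists, and the cause of these widths and scores was not tested. The widths, scores, shares and ranks given for MYC and PVT1 against other chromosomes carry this difference.

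**Figure D5:**
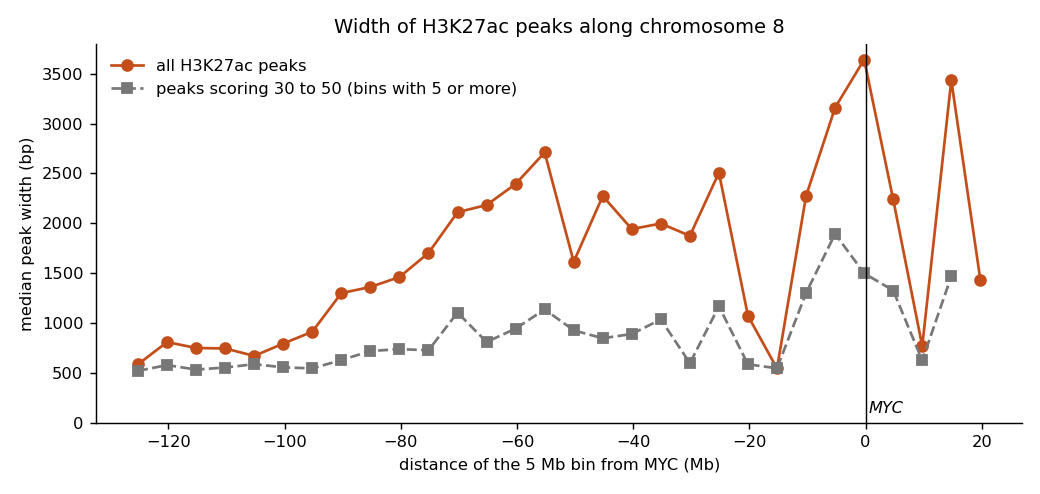
Median width (bp) of H3K27ac peaks in 5 Mb bins along chromosome 8, by distance of the bin from MYC (Mb), for all peaks and for those scoring 30 to 50. Both medians are higher around MYC than at the far left, where they lie under 1000 bp, and all-peak medians dip to 545 and 768 bp in 2 bins near it.

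The 30 Mb stretch that holds MYC was also compared within itself, in bins of 1 Mb. Of the 30 bins of 1 Mb in that stretch, whose median share of H3K27ac was 3.24%, the bin with MYC was the highest at 28.6%. The last 2 bins of the stretch followed with 21.7% and 18.2%, and they hold 47 and 32 protein-coding genes against 2. In H3K4me3 the bin with MYC was below both, with 6.69% against 18.3% and 16.1%.

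The other genes of the network were mostly marked at their starts, from lists chosen with earlier results of these data known. Of the rest of the MAX and MLX network, 6 of 6 genes had both marks, against 57.7% of protein-coding genes. MXI1 and MGA, which pair with MAX, had H3K27ac scores of 3230 and 3100, MXD3 and MLX had 1253 and 893.4, and MLXIPL, a glucose-responsive factor, 41.65. Of 14 cofactors and regulators of MYC stability, 13 had both marks. TRRAP and RUVBL1, subunits of acetyltransferase complexes, had H3K27ac scores of 2439 and 330.8. ZBTB17, which encodes the MYC partner MIZ1, had H3K4me3 only. Of 16 known MYC targets, 15 had both: ODC1, of polyamine synthesis, had an H3K27ac score of 798.6, the nucleolar genes NCL and NPM1 3100 and 1357, and CDK4 178.9. CCND2, encoding cyclin D2, had H3K4me3 only, with a score of 101.3. With a gene without a peak counted as 0, the median H3K27ac score was 2152 in the network, 788.2 for the cofactors and 1172 for the targets, with 1550 for the 8 members and 663.6 for protein-coding genes with both marks.

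The cell line label was checked on markers. Of 5 epithelial genes 4 had both marks and KRT8 had H3K27ac only at its given start, while none of 4 leukocyte, 3 endothelial, 4 fibroblast and 4 neural genes had both. Of those 15 genes, ELAVL4 alone had H3K27ac at its start, with a score of 43.26, and CD14, COL1A1, SYP and CHGA had H3K4me3 only. Of 3 luminal receptor genes, whose products triple-negative tumours lack by definition, 2 had both marks. ESR1, the oestrogen receptor gene, had an H3K27ac score of 110.1 and ERBB2, which encodes HER2, 253.2, both with H3K4me3 at 3100. PGR, the progesterone receptor gene, had H3K4me3 only, with a score of 1627. The label of the line thus did not go with unmarked receptor genes, and no RNA or protein was measured here. The H3K27ac scores of ESR1 and ERBB2 lay below 663.6, the median of protein-coding genes with both marks. PGR had no H3K27ac peak at its start. Across the lists, 39.9% of H3K27ac and 69.9% of H3K4me3 peaks scored at least 100, and 14.1% of H3K4me3 peaks were over 4 kb wide. Around MYC these were 47 of 75, 15 of 25 and 6 of 25. The 47 make 62.7%, level with 62.8% of H3K27ac peaks in the rest of the 30 Mb stretch that holds MYC.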

How the data were processed

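The authors deposited 1 peak list per mark, with a position and a score per peak and no stated unit for the score. Per the submitters' processing notes, Bowtie2, MACS 1.4 and hg38 were used; parameters and how replicates were treated are not given in the sources used here. The labels' protocols give formaldehyde fixation, then sonication and micrococcal nuclease, and digestion can shape the edges of peaks. Autosomes and X were kept, which left out 1 H3K27ac and 2 H3K4me3 peaks; positions count from 1.

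Gene spans were taken from RefSeq annotation (GRCh38.p14), and starts from its promoter table for 15813 of 19974 protein-coding genes. The other 4161, those of chromosome 8 such as MYC among them, and PVT1 were placed by both ends. Overlap was at least 1 bp. Covered sequence was the length of peaks clipped to a window. Members, lists and comparisons were chosen with earlier results of these data known. The genes named were the 8 members, the protein-coding genes near MYC, noncoding genes there that hold peaks of both marks in their span, the 5 largest clusters and the first members of each list; CCAT1, LOC105375754, LINC00824, MLXIPL, ZBTB17, CCND2 and the genes beside MAX and MNT were named after their values were seen. Alternatives were other windows, flanks, joining and distal distances, a score of at least 100, merged peaks and 50% overlap. Counting was checked on 500 simulated windows, with 0 differing. Python 3.11.15, numpy 2.4.6, pandas 2.3.3, scipy 1.17.1 and matplotlib 3.10.9 were used.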

Additional observations from a re-analysis of the deposited data

How the results depend on the processing

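All 8 members kept both marks with windows of 500 bp and 2.5 kb, with either gene end and with any peak in the span; with scores of at least 100 the count was 7, without MYCN. That score left 56 of 107 H3K27ac peaks within 50 kb of the members, and 47 of 75 H3K27ac and 15 of 25 H3K4me3 peaks within 2 Mb of MYC. With 50% of the H3K27ac peak covered, the share on H3K4me3 near MYC was 8%, against 24.0%. The largest cluster held 24526 bp when joined at 5 kb. The PVT1 side minus the other side of MYC was -25784 bp of H3K27ac, -39378 bp with scores of at least 100 and -10078 bp within 1 Mb. It turned to 4087 bp within 500 kb and 27703 bp within 250 kb, both added after seeing the data, so the direction depends on the window. Bins shifted by 500 kb, added after seeing the data, put 5 bins at or above the bin with MYC, against 1, both counts including the bin with MYC itself. The cause of these shifts was not tested. No paired analysis was possible because each mark has 1 library and no test was run. Read depth is unknown, so weak peaks such as those at MYCN cannot be given an error.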

Other observations

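Beyond 500 kb the window around MYC held few strong sites. LRATD2, 1177.0 kb below MYC, had scores of 3100 in both marks, with an H3K27ac peak of 6219 bp at 126553550 to 126559768 that lay wholly inside 7351 bp of H3K4me3. LOC105375751, a noncoding gene that begins under the same peaks, held 7 H3K27ac and 4 H3K4me3 peaks in its span. At 128426115 to 128430928, 693.1 kb above MYC in LINC00824, an H3K27ac peak of 4814 bp scored 3100 with no H3K4me3 on it. CCDC26, a long noncoding gene 1608.7 kb above MYC, held 3 H3K27ac peaks with a top score of 246.5 and 1 H3K4me3 peak with a score of 32.82, none on the other. GSDMC, a gasdermin gene at the edge of the window, had both marks at its higher-coordinate end, which lies outside the 2 Mb, with scores of 3100 for H3K27ac and 1025 for H3K4me3. Of the 51 annotated genes that reach into the window, 11 had both marks at an end, 4 had H3K27ac only and 36 had neither, with all 13 pseudogenes among the last. Both marks were at 4 of 4 protein-coding genes, against 57.7% of such genes in the genome, and at 6 of 28 lncRNA genes, a share near the 19.8% of all lncRNA genes. The genome shares used annotated starts where these were given, a stricter rule than either end, so the measures are unlike. POU5F1B had both marks at its higher-coordinate end only. The H3K4me3 there scored 87.45 and came from a peak beyond the gene.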
